A study of Homo sapiens with 6 samples.

Results

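Selective autophagy cargo receptors are proteins that hold a cargo with one part and an ATG8 protein on the growing autophagosome with another. Their genes were followed here in A549, an epithelial line from a human lung carcinoma, after depletion of BCLAF1, a nuclear factor that acts in transcription and in splicing. The rows with the symbols SQSTM1, NBR1, OPTN, CALCOCO2, TAX1BP1, BNIP3 and BNIP3L were taken from the table of read counts, which gave 7 genes of 29122. All 7 passed the filter on low counts. Polyadenylated RNA was sequenced from 3 libraries of cells stably transduced by lentivirus with a short hairpin RNA against BCLAF1 (BCLAF1-depleted) and from 3 libraries of cells that carried a hairpin against firefly luciferase (control), so that both groups held a virus and a hairpin. Each arm rests on a single hairpin target, and the labels do not say whether the replicates are separate cultures, clones or transductions, so p-values rest on library-to-library spread that may be technical only. The sample titles write si where the protocol names a short hairpin RNA. By its title, the series links BCLAF1 and the Mediator subunit MED23 to senescence and to a block of autophagy in lung cancer cells.

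SQSTM1 (p62), NBR1, OPTN (optineurin), CALCOCO2 (NDP52) and TAX1BP1 are soluble receptors that bind ubiquitin chains on protein aggregates, damaged mitochondria or bacteria. BNIP3 and BNIP3L (NIX) sit in the outer mitochondrial membrane and are themselves the tag for mitophagy, the removal of mitochondria. SQSTM1 protein is degraded together with its cargo, and so its protein level is often read as an inverse sign of flux, whereas the values below are levels of its transcript. A549 cells carry a loss-of-function mutation in KEAP1, the adaptor that marks NRF2 for degradation, and SQSTM1 is a known NRF2 target gene.

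Library totals ranged from 33409158 to 40820922 counts in BCLAF1-depleted cells and from 41019185 to 43928927 in control cells, so that 3 counts equal 0.0683 to 0.0898 CPM (counts scaled to the library total), a floor that covers counting error only. All later CPM are scaled by TMM, which sets the libraries on the bulk of their genes, unless library totals are named. The hairpin lowered its target: BCLAF1 transcripts stood at 39.0, 35.7 and 53.1 CPM with the BCLAF1 hairpin and at 211, 199 and 203 CPM in controls (log2 fold change -2.26 ± 0.16, edgeR adjusted p = 2.31e-05). MED23 had 4.74 ± 1.75 CPM in BCLAF1-depleted cells and 6.98 ± 1.17 CPM in controls (SD, n = 3 each; -0.56 ± 0.24, edgeR adjusted p = 0.0955). MED23 passed with no filter on low counts (edgeR adjusted p = 0.00824), on the log2(FPKM + 1) scale (limma adjusted p = 0.047) and without BCLAF1-depleted replicate 1 (-0.93, edgeR adjusted p = 0.00306). Of 6 epithelial markers, 5 reached at least 1 CPM in some library, with summed levels of 34500 to 42000 CPM in BCLAF1-depleted and 32600 to 34200 CPM in control libraries, almost all from KRT8, KRT18 and KRT7. The alveolar type II markers summed to 24.1 to 28.7 CPM in BCLAF1-depleted and 29.4 to 34.4 CPM in control libraries, with SFTPB and SFTPC at or near 0. Almost all of this came from ABCA3, the only 1 of them to reach 1 CPM. Below 1 CPM, SFTPD (1.02 ± 0.36, edgeR adjusted p = 0.0481) and the epithelial marker KRT19 (1.13 ± 0.40, edgeR adjusted p = 0.0495) rose, named after their values were seen. DESeq2 called neither. The list of immune, endothelial and fibroblast markers summed to 37.7 to 42 CPM in BCLAF1-depleted and 40.6 to 45.1 CPM in control libraries, which overlap, and PTPRC stayed at or below 0.11 CPM by library totals. Within that list COL1A1 (-0.84 ± 0.13, edgeR adjusted p = 0.00136) and PECAM1 (-0.89 ± 0.29, edgeR adjusted p = 0.0359) fell and CDH5 rose (1.20 ± 0.27, edgeR adjusted p = 0.00822), named after their values were seen. BCLAF1-depleted replicate 3 stood apart in its make-up, with 19.3% of counts from mitochondrially encoded genes, against 10.5 to 11.4% in the other BCLAF1-depleted libraries and 10.7 to 11.1% in the controls.

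The receptor genes did not move as a group. SQSTM1 rose, BNIP3L fell, and the other 5 did not pass the test, with a median log2 fold change of -0.13 over the 7 genes, against 0.02 over all tested genes. Fold changes are BCLAF1-depleted over control with their standard error (SE), from edgeR's quasi-likelihood fit over 15907 genes, and a call is an adjusted p under 0.05. In that fit 35.8% of all tested genes were called, 17.8% as higher and 18.0% as lower, so that 1 higher and 1 lower gene among 7 is no larger a share than the background. The libraries of the groups did not overlap in CPM for 4 of the receptors, which compares with 51.9% of all tested genes.

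**Figure D1:**
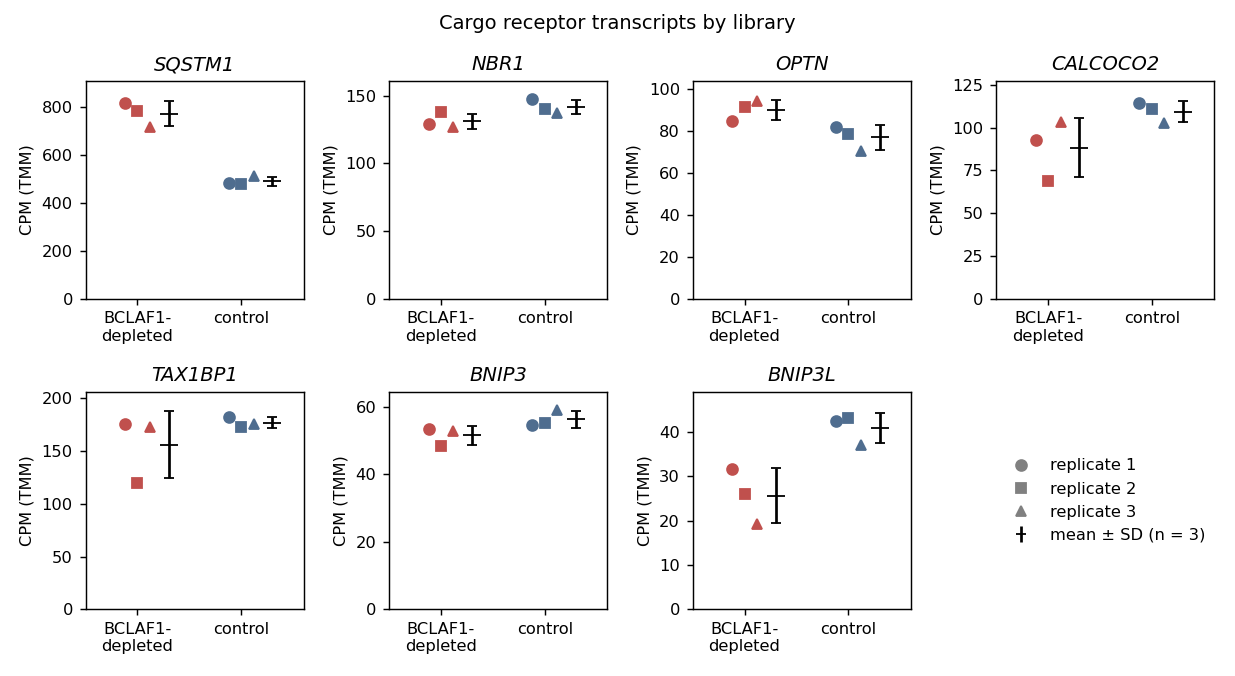
CPM (TMM-scaled, linear axes from 0) of the 7 receptor transcripts in each of 3 BCLAF1-depleted (red, left) and 3 control (blue, right) libraries, with the mean ± SD in black and marker shapes for replicates. SQSTM1 lies at 715 to 816 CPM in BCLAF1-depleted and 476 to 509 CPM in control libraries, and BNIP3L at 19.2 to 31.6 CPM in BCLAF1-depleted and 37.0 to 43.0 CPM in control libraries.

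BNIP3 is a textbook target of the hypoxia factor HIF1, and was not called in the main fit. Values of HIF1A and of other hypoxia targets are given further below, and a link to BNIP3 was not tested. Stretches upstream of 3 receptor genes, none of them called in the main fit, are shown, chosen because they hold a match to the motifs below. The OPTN and TAX1BP1 stretches hold none and are left out. SQSTM1 had no stretch free of annotated exons that was long enough to show. The stretches are RefSeq sequence on GRCh38.p14, cut to the bases that carry no annotated exon. Capitals mark matches, on either strand, to the antioxidant response element core TGACNNNGC, the E-box CACGTG and the hypoxia response element cores ACGTG and GCGTG, where the E-box contains ACGTG on both strands.
BNIP3, chr10:131982014-131982173, minus strand: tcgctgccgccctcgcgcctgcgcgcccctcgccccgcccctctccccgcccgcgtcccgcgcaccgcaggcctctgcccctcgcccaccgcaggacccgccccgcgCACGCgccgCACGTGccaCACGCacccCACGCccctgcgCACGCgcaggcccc
CALCOCO2, chr17:48830785-48830987, plus strand: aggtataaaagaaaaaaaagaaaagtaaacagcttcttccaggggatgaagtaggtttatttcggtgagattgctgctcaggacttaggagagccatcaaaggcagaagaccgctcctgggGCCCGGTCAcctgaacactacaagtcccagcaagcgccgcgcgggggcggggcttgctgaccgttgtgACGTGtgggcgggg
NBR1, chr17:43171038-43171201, plus strand: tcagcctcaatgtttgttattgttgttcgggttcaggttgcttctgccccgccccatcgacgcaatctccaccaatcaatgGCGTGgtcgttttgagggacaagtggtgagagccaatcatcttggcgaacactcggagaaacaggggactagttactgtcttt

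Over the full 250 bases before the start, the BNIP3 window held 6 hypoxia cores and 1 E-box. Of these cores, 2 are the 2 strands of that E-box. The printed BNIP3 stretch is 83.8% G and C. The CALCOCO2 window held 1 hypoxia core and 1 antioxidant core, and each of the 2 NBR1 windows 1 hypoxia core. The 3 SQSTM1 and 2 OPTN windows held no match to these motifs, and of the 2 TAX1BP1 windows 1 held a hypoxia core. BNIP3L had 0 windows in the sequences used and was not scanned. Of 35116 RefSeq promoter windows of this length, 43.2% held at least 1 hypoxia core, 10.9% an antioxidant core and 6.34% an E-box. How many windows held several cores was not counted. A match is a run of letters and not evidence of binding. A missing match is not evidence against regulation, since bases outside these 250 were not scanned.

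SQSTM1 (ENSG00000161011.18, GRCh38 chromosome 5, 179806398 to 179838078, plus strand) codes for p62, which clusters ubiquitinated cargo through its own oligomers. It reached 816, 780.3 and 715 CPM in BCLAF1-depleted libraries, against 480.3, 476 and 509 CPM in control libraries. Every BCLAF1-depleted library was above every control library, and the spread among the BCLAF1-depleted libraries (SD 51.3 CPM) was wider than among the controls (SD 17.9 CPM). The log2 fold change was 0.66 ± 0.14 (edgeR adjusted p = 0.00581), a 1.58-fold higher level with a 95% interval of 1.28 to 1.94. In bulk RNA, fewer cells that express a gene and less RNA per cell cannot be told apart, and this holds for all values here.

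The size of the SQSTM1 rise depended on the scaling. Scaled to library totals alone, SQSTM1 had 857, 732 and 568 CPM in BCLAF1-depleted libraries and 516, 515 and 557 CPM in controls, and replicate 3 was then close to the controls. The log2 fold change was then 0.44 ± 0.17 (edgeR adjusted p = 0.0615), and the median of all tested genes moved to -0.21. With the mitochondrially encoded genes also left out, an alternative added after seeing the data, it was 0.48 ± 0.15 (edgeR adjusted p = 0.028). On the deposited FPKM values (scaled for transcript length and library size), SQSTM1 had 212, 175 and 142 in BCLAF1-depleted libraries against 133, 132 and 142 in controls, so that replicate 3 lay within the control range. On the log2(FPKM + 1) scale the difference was 0.36 ± 0.16 (limma adjusted p = 0.101). Without control replicate 2 the edgeR adjusted p was 0.0502. The difference kept its sign in all of these settings. It was 0.75 ± 0.13 (edgeR adjusted p = 0.0027) once the trends with merged exon length and GC content were removed. The genes that share exon bases with SQSTM1 on the opposite strand, C5orf45 (MRNIP; -0.08 ± 0.14, edgeR adjusted p = 0.706) and MGAT4B (0.30 ± 0.12, edgeR adjusted p = 0.0782), did not pass.

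BNIP3L (ENSG00000104765.13, chromosome 8, 26382898 to 26505636, plus strand) codes for NIX, the receptor that clears mitochondria in maturing red cells. It had 31.6, 25.9 and 19.2 CPM in BCLAF1-depleted libraries, against 42.4, 43.0 and 37.0 CPM in controls. Every BCLAF1-depleted library was below every control, with replicate 1 nearest to the controls and replicate 3 lowest. Its log2 fold change of -0.67 ± 0.17 (edgeR adjusted p = 0.0139) is a 1.59-fold lower level. The sign was the same in all settings tried, at -0.51 to -0.98. The call was lost without control replicate 1 (edgeR adjusted p = 0.0524) and without control replicate 2 (edgeR adjusted p = 0.0548), and with log2(FPKM + 1) and no filter (limma adjusted p = 0.0678). PNMA2, a gene on the opposite strand that shares 330 exon bases with BNIP3L, fell to 8.05 ± 2.33 CPM in BCLAF1-depleted cells, against 18.6 ± 1.06 CPM in controls (SD, n = 3 each; -1.21 ± 0.19, edgeR adjusted p = 0.0016). The sources used here do not state how strand entered the counting, and the part of PNMA2 reads in the BNIP3L counts was not tested.

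BNIP3 (ENSG00000176171.10, chromosome 10, 131966455 to 131982013, minus strand), the closest relative of BNIP3L, had 53.6, 48.3 and 52.8 CPM in BCLAF1-depleted libraries and 54.5, 55.2 and 59.1 CPM in controls. The groups were next to each other without overlap. The test did not pass at a log2 fold change of -0.13 ± 0.11 (edgeR adjusted p = 0.39), with a 95% interval of -0.37 to 0.12. Reads shared with the many processed pseudogenes of BNIP3 were not analysed here. The count ratio of BNIP3 to BNIP3L was 1.69, 1.86 and 2.75 in BCLAF1-depleted libraries, against 1.29, 1.28 and 1.6 in controls, higher in each BCLAF1-depleted library than in any control. This ratio does not depend on the scaling of libraries.

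OPTN (ENSG00000123240.15, chromosome 10, 13099449 to 13138308, plus strand), a receptor for mitochondria and bacteria that the kinase TBK1 activates, had 84.8, 91.5 and 94.3 CPM in BCLAF1-depleted libraries and 82.1, 78.8 and 70.4 CPM in controls. The groups did not overlap in TMM-scaled CPM. At 0.23 ± 0.12 on the log2 scale the difference missed the threshold (edgeR adjusted p = 0.155), with a 95% interval of -0.04 to 0.49. CCDC3, which shares 147 exon bases with OPTN on the opposite strand, did not pass (0.25 ± 0.47, edgeR adjusted p = 0.707). OPTN passed with the length and GC trends removed (0.36 ± 0.12, edgeR adjusted p = 0.0426), but was -0.0038 when only library totals scaled the counts and -0.06 on the log2(FPKM + 1) scale.

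CALCOCO2 (ENSG00000136436.13, chromosome 17, 48830988 to 48866522, plus strand), which codes for NDP52, a receptor for bacteria and mitochondria, had 92.7, 69.1 and 103.2 CPM in BCLAF1-depleted libraries and 114.5, 110.9 and 102.6 CPM in controls. BCLAF1-depleted replicate 2 was low, and replicate 3 lay just above the lowest control, so the groups overlapped. At -0.31 ± 0.15 on the log2 scale it missed the threshold (edgeR adjusted p = 0.141), with a 95% interval of -0.65 to 0.04. It passed with library totals alone (-0.54, edgeR adjusted p = 0.0284), also with mitochondrially encoded genes left out (-0.49, edgeR adjusted p = 0.0383), on the log2(FPKM + 1) scale (-0.59, limma adjusted p = 0.017) and without BCLAF1-depleted replicate 3 (-0.44, edgeR adjusted p = 0.0487). With the length and GC trends removed it was -0.08 ± 0.14 (edgeR adjusted p = 0.684).

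TAX1BP1 (ENSG00000106052.12, chromosome 7, 27739331 to 27844564, plus strand), a relative of CALCOCO2 that brings the initiation factor RB1CC1 to ubiquitin clusters, had 175.5, 119.8 and 173 CPM in BCLAF1-depleted libraries and 183, 172.5 and 175 CPM in controls. BCLAF1-depleted replicate 2 alone stood far below the other libraries, and it was also the lowest library for CALCOCO2. The difference of -0.18 ± 0.16 on the log2 scale missed the threshold (edgeR adjusted p = 0.397), with a 95% interval of -0.53 to 0.17, and was -0.02 ± 0.11 without that library (edgeR adjusted p = 0.9). Across the 6 libraries, which share group and depth differences, TAX1BP1 and CALCOCO2 had a Pearson r of 0.93 in log2 CPM, the highest of the 21 receptor pairs. JAZF1, which shares 415 exon bases with TAX1BP1 on the opposite strand, fell to 2.89 ± 0.607 CPM in BCLAF1-depleted cells, against 4.52 ± 0.347 CPM in controls (SD, n = 3 each; -0.65 ± 0.19, edgeR adjusted p = 0.0254), levels far below those of TAX1BP1.

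NBR1 (ENSG00000188554.12, chromosome 17, 43170481 to 43211689, plus strand), the partner of p62 in ubiquitin clusters and in the removal of peroxisomes, had 129, 138 and 127 CPM in BCLAF1-depleted libraries and 148, 139.9 and 137 CPM in controls. The groups overlapped, and the log2 difference of -0.11 ± 0.12 missed the threshold (edgeR adjusted p = 0.479), with a 95% interval of -0.37 to 0.15. Its sign turned to 0.11 with the length and GC trends removed. On the log2(FPKM + 1) scale it passed at -0.39 ± 0.14 (limma adjusted p = 0.046). RP11-242D8.1, which shares 463 exon bases with NBR1 on the opposite strand, did not pass (-0.66 ± 0.31, edgeR adjusted p = 0.113).

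The number of receptors called varied between settings, as did the share of all genes called. The FPKM settings differ from the counts in scaling, test and filter together. On the log2(FPKM + 1) scale 0 receptors were called higher and 3, NBR1, CALCOCO2 and BNIP3L, lower, against 7.34% of 11301 genes higher and 33.0% lower, and with a pseudocount of 0.1 the counts were the same beside 7.11% higher and 31.8% lower. Without a filter on FPKM no receptor was called, beside 1.98% of genes higher and 7.12% lower. With library totals alone 0 were higher and 2, CALCOCO2 and BNIP3L, lower, beside 8.07% of genes higher and 23.0% lower. Leaving out the mitochondrially encoded genes as well, SQSTM1 was higher and these 2 lower, beside 10.1% higher and 23.4% lower. With the length and GC trends removed SQSTM1 and OPTN were higher and BNIP3L lower, beside 17.8% higher and 16.2% lower. Without BCLAF1-depleted replicates 1, 2 and 3 in turn, 23.0%, 12.3% and 15.6% of genes were called higher and 25.8%, 12.7% and 15.2% lower, and SQSTM1 and BNIP3L kept their calls. CALCOCO2 was also called lower without BCLAF1-depleted replicate 3. Without control replicates 1, 2 and 3 in turn, 8.60%, 8.51% and 9.37% of genes were called higher and 9.53%, 9.57% and 10.3% lower. SQSTM1 was then the only receptor called without control replicate 1, and no receptor was called without control replicate 2. SQSTM1 and BNIP3L kept their calls without control replicate 3.

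**Figure D2:**
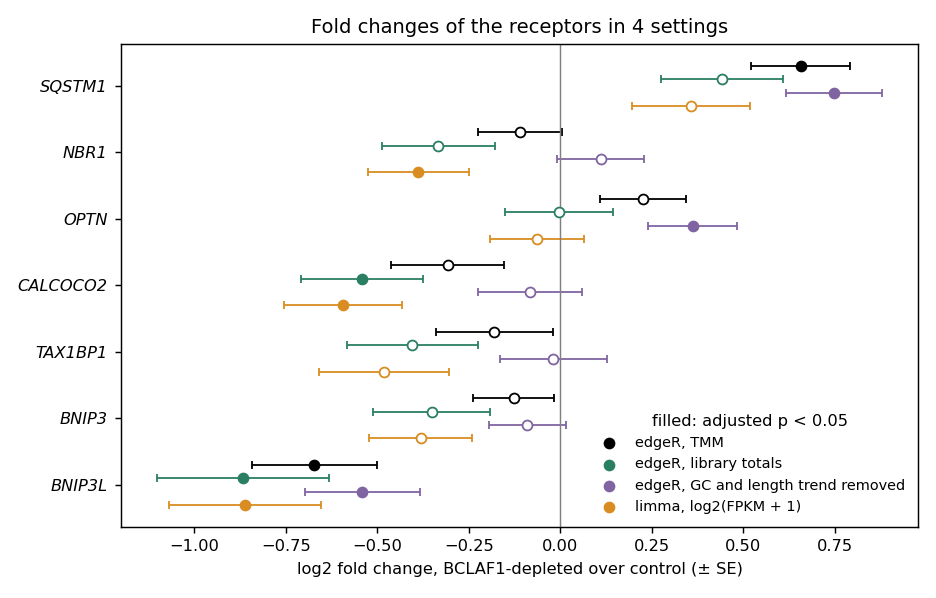
Log2 fold changes (BCLAF1-depleted over control, ± SE) of the 7 receptors in 4 settings, with filled markers for an adjusted p under 0.05. SQSTM1 is positive and BNIP3L negative in each setting, while NBR1 and OPTN change sign between settings.

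Genes with longer exon sequence, merged over all annotated transcripts of a gene, were lower relative to shorter ones across all genes. The receptor genes have 4307 to 9165 bases of it, in the middle or the upper length quintiles. The merged length can exceed that of the transcripts expressed here, which was not measured. Tested genes had a median of -0.125 in the length quintile that holds SQSTM1 (5416 to 7812 bases), -0.188 in the quintile above it, which holds NBR1, CALCOCO2 and TAX1BP1, and -0.029 in the quintile that holds OPTN, BNIP3 and BNIP3L. SQSTM1, OPTN, NBR1 and TAX1BP1 lay above the median of their length class, TAX1BP1 only just, and BNIP3L, BNIP3 and CALCOCO2 lay below it.

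SQSTM1 was by far the most abundant receptor transcript. Per length, in deposited FPKM, SQSTM1 averaged 176 ± 35.2 in BCLAF1-depleted and 136 ± 5.84 in control libraries (SD, n = 3 each), above 98.5% and 98.1% of 17663 protein-coding genes in these groups. TAX1BP1 followed at 33.1 ± 8.8 in BCLAF1-depleted and 45.7 ± 1.32 in control libraries. The middle of the order was NBR1 (20.5 ± 2.9), CALCOCO2 (18.2 ± 3.94) and OPTN (17.5 ± 1.43) in BCLAF1-depleted cells, and CALCOCO2 (27.7 ± 1.38), NBR1 (27.0 ± 0.943) and OPTN (18.4 ± 1.33) in controls. In BCLAF1-depleted cells these 3 genes overlapped with each other in the order, and in controls CALCOCO2 and NBR1 did. BNIP3 (8.43 ± 1.36 in BCLAF1-depleted, 11.2 ± 0.569 in control) and BNIP3L (5.33 ± 1.98 in BCLAF1-depleted, 10.1 ± 0.756 in control) came last and did not overlap within a group. The gene length behind the deposited FPKM is not stated. By counts per kilobase of GENCODE exon length, SQSTM1 also came first and BNIP3 and BNIP3L last in both groups, while OPTN moved to the second place in BCLAF1-depleted cells and CALCOCO2 to the fifth in both groups.

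**Figure D3:**
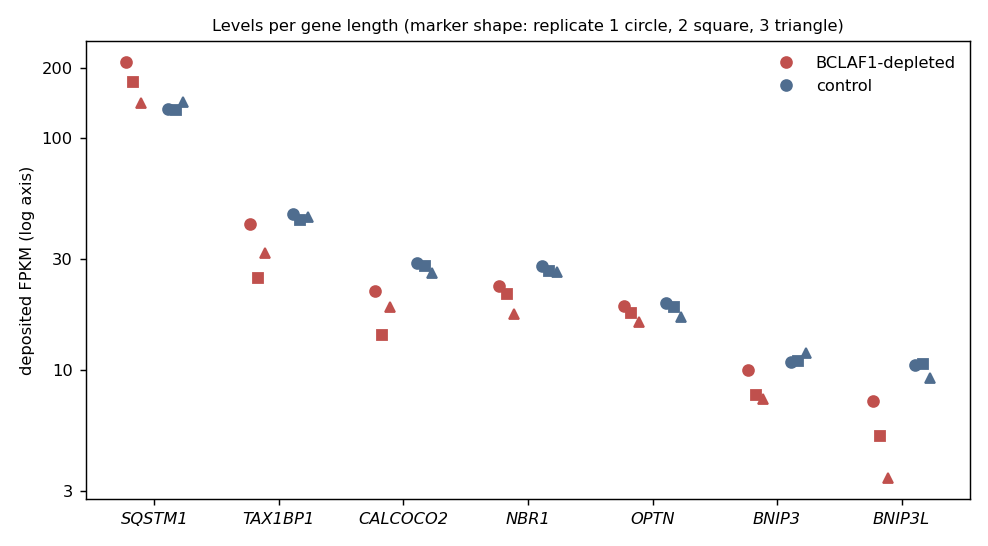
Deposited FPKM (log axis) of each receptor in 3 BCLAF1-depleted (red, left) and 3 control (blue, right) libraries, in the order of the control means, with marker shapes for replicates. SQSTM1 lies at 142 to 212 FPKM in BCLAF1-depleted and 132 to 142 FPKM in control libraries, where the groups meet, and BNIP3L at 3.42 to 7.37 FPKM in BCLAF1-depleted and 9.27 to 10.6 FPKM in control libraries.

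The make-up of the receptor pool shifted towards SQSTM1. Of the summed FPKM of the 7 genes, SQSTM1 took 63.2, 65.8 and 59.9% in BCLAF1-depleted libraries, against 47.9, 48.6 and 51.1% in controls. BNIP3 and BNIP3L together took 5.17, 4.87 and 4.62% in BCLAF1-depleted libraries, against 7.68, 7.97 and 7.59% in controls. The shares did not overlap between the groups, although the sum itself did, at 237 to 336 FPKM in BCLAF1-depleted and 271 to 279 FPKM in control libraries. Within a library the ratio of SQSTM1 to NBR1 counts was 6.33, 5.67 and 5.62 in BCLAF1-depleted cells, against 3.25, 3.41 and 3.71 in controls. The ratio of SQSTM1 to BNIP3L counts was 25.8, 30.1 and 37.2 in BCLAF1-depleted cells, against 11.3, 11.1 and 13.7 in controls. The ratio of SQSTM1 to OPTN counts moved least, at 7.58 to 9.62 in BCLAF1-depleted and 5.85 to 7.23 in control libraries. All 6 ratios of SQSTM1 to another receptor were higher in each BCLAF1-depleted library than in any control. They share SQSTM1, the only receptor called higher, and so are not 6 separate results. Such ratios do not change with the scaling, and they show unequal change between the genes, not which gene moved. How often ratios of other gene pairs did not overlap was not counted. Taken singly, 51.9% of all tested genes did not overlap in CPM.

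**Figure D4:**
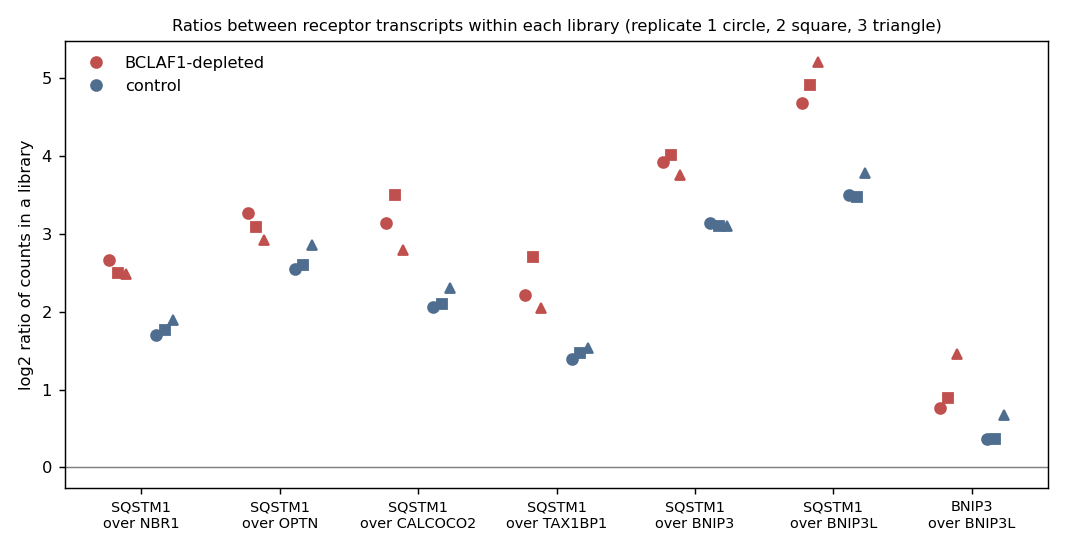
Log2 ratio of read counts between receptor transcripts in each of 3 BCLAF1-depleted (red, left) and 3 control (blue, right) libraries, with marker shapes for replicates. The ratios of SQSTM1 to the other receptors and of BNIP3 to BNIP3L are higher in every BCLAF1-depleted library than in any control, with SQSTM1 over BNIP3L at 4.69 to 5.22 in BCLAF1-depleted and 3.47 to 3.78 in control libraries.

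The receptors and all lists below were chosen with earlier results of these data known. Counts of their called genes beside the share of all genes are therefore a description and not a test. For each list below in which edgeR called 0 genes in a direction, 0 also had an unadjusted p under 0.05 in that direction and DESeq2 called 0. Other selective autophagy receptors moved in both directions. Of 21 tested, 2 rose and 3 fell, with a median of -0.01, where 35.8% of all tested genes were called. FAM134C (RETREG3), an ER-phagy receptor of the reticulon-homology family, rose to 70.4 ± 25.4 CPM in BCLAF1-depleted cells, against 33.0 ± 1.77 CPM in controls (SD, n = 3 each; 1.09 ± 0.24, edgeR adjusted p = 0.00711). SEC62, a translocon protein that serves as a receptor in recovery from ER stress, rose by 0.84 ± 0.25 (edgeR adjusted p = 0.0238), a call lost when any library other than BCLAF1-depleted replicate 1 was left out (edgeR adjusted p 0.0532 to 0.0831). NCOA4, the receptor that delivers ferritin, fell to 37.9 ± 8.55 CPM in BCLAF1-depleted cells, against 60.8 ± 4.16 CPM in controls (-0.68 ± 0.16, edgeR adjusted p = 0.00999). WDFY3 (ALFY), a large scaffold that acts with p62 on protein aggregates, fell to 9.73 ± 3.05 CPM in BCLAF1-depleted cells, against 17.9 ± 0.683 CPM in controls (-0.87 ± 0.20, edgeR adjusted p = 0.00841). The third gene that fell was GBAS (NIPSNAP2), a mitochondrial protein that recruits receptors in mitophagy (-0.55 ± 0.15, edgeR adjusted p = 0.0164), named outside the rule for named genes after its value was seen.

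Of 6 tested ATG8 genes, MAP1LC3C and GABARAP rose and none fell, where 17.8% of all tested genes rose and 18.0% fell. MAP1LC3C, whose protein is the preferred partner of CALCOCO2 in xenophagy, was near the floor, with 19, 15 and 12 counts in BCLAF1-depleted libraries and 5, 6 and 5 counts in controls (edgeR adjusted p = 0.00642). GABARAP rose by 0.58 ± 0.19 (edgeR adjusted p = 0.0398), but its groups overlapped. That call was lost when any library other than BCLAF1-depleted replicate 1 was left out (edgeR adjusted p 0.0902 to 0.128), with the length and GC trends removed (0.149) and with library totals alone (0.158). Of 11 initiation partners, 4 fell and 0 rose, with a median of -0.20, where 18.0% of all tested genes fell and 17.8% rose. These were TANK and AZI2, adaptors of the kinase TBK1, ATG16L1, which places the conjugation of ATG8 proteins, and RB1CC1 (FIP200), the scaffold of the initiation complex that several receptors bind. ATG16L1 fell to 27.4 ± 5.94 CPM in BCLAF1-depleted cells, against 43.1 ± 0.823 CPM in controls (-0.66 ± 0.15, edgeR adjusted p = 0.00984), and TANK by 0.76 on the log2 scale (edgeR adjusted p = 0.00868). RB1CC1 fell by 0.45 (edgeR adjusted p = 0.0119) and AZI2 by 0.41 (edgeR adjusted p = 0.0288), and with the length and GC trends removed they were at -0.18 (edgeR adjusted p = 0.253) and -0.18 (edgeR adjusted p = 0.24). Both also lost their call when any 1 of the controls was left out (edgeR adjusted p 0.0546 to 0.111), and AZI2 without BCLAF1-depleted replicate 2 (edgeR adjusted p = 0.0597).

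Of 13 tested kinases, ubiquitin ligases and related enzymes that act on receptors, 1 fell and 0 rose, with a median of -0.21. Of all tested genes 18.0% fell and 17.8% rose, so the count of 1 that fell is no larger a share than the background. PPTC7, a mitochondrial phosphatase that restrains BNIP3 and BNIP3L protein, fell by 0.60 ± 0.20 (edgeR adjusted p = 0.0364), a call that was lost when any library other than BCLAF1-depleted replicate 1 was left out (edgeR adjusted p 0.0649 to 0.106) and with the length and GC trends removed (edgeR adjusted p = 0.0898).

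Genes known to share regulators with the receptors were counted by pathway. Like the other lists, the NRF2 and hypoxia lists were chosen with earlier results of these data known. Their counts beside the share of all genes are therefore a description and not a test. Of 24 NRF2 targets other than SQSTM1, 7 rose and 0 fell, with a median of 0.22, where 17.8% of all tested genes rose and 18.0% fell. With library totals alone 4 were called, where 8.07% of genes rose. HMOX1, the heme oxygenase gene, rose to 119 ± 2.6 CPM in BCLAF1-depleted cells, against 35.0 ± 3.01 CPM in controls (1.77 ± 0.12, edgeR adjusted p = 1.43e-05), OSGIN1 by 1.13 ± 0.14 (edgeR adjusted p = 0.000433), the ferritin heavy chain gene FTH1 by 0.93 ± 0.16 (edgeR adjusted p = 0.00266) and PIR by 0.67 ± 0.12 (edgeR adjusted p = 0.00332). NFE2L2, the gene of NRF2 itself, had 53.2 ± 10.6 CPM in BCLAF1-depleted and 66.0 ± 3.15 CPM in control cells (-0.31 ± 0.15, edgeR adjusted p = 0.127) and was named after its value was seen.

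Of 24 hypoxia targets other than BNIP3 and BNIP3L, 12 fell and 2 rose, with a median of -0.48, where 18.0% of all tested genes fell and 17.8% rose. CA9, a carbonic anhydrase used as a hypoxia marker, had 3, 2 and 7 counts in BCLAF1-depleted libraries, against 193, 241 and 206 counts in controls (edgeR adjusted p = 1.24e-05). BHLHE40, a transcription factor gene induced by hypoxia, fell by 0.93 ± 0.15 (edgeR adjusted p = 0.00194), whereas the vasoactive peptide gene ADM (1.17 ± 0.14, edgeR adjusted p = 0.000349) and the oxygen-sensing hydroxylase gene EGLN3 (1.05 ± 0.13, edgeR adjusted p = 4.00e-04) rose. Of 10 genes of factors known to act on receptor genes, 2 fell and 0 rose, with a median of -0.27. HIF1A, the oxygen-regulated subunit of HIF1, fell to 60.4 ± 21.6 CPM in BCLAF1-depleted cells, against 177 ± 8.85 CPM in controls (-1.55 ± 0.23, edgeR adjusted p = 0.00131). MITF, a relative of TFEB, fell by 0.78 ± 0.19 (edgeR adjusted p = 0.0123), a call lost without control replicate 3 (edgeR adjusted p = 0.0565).

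**Figure D5:**
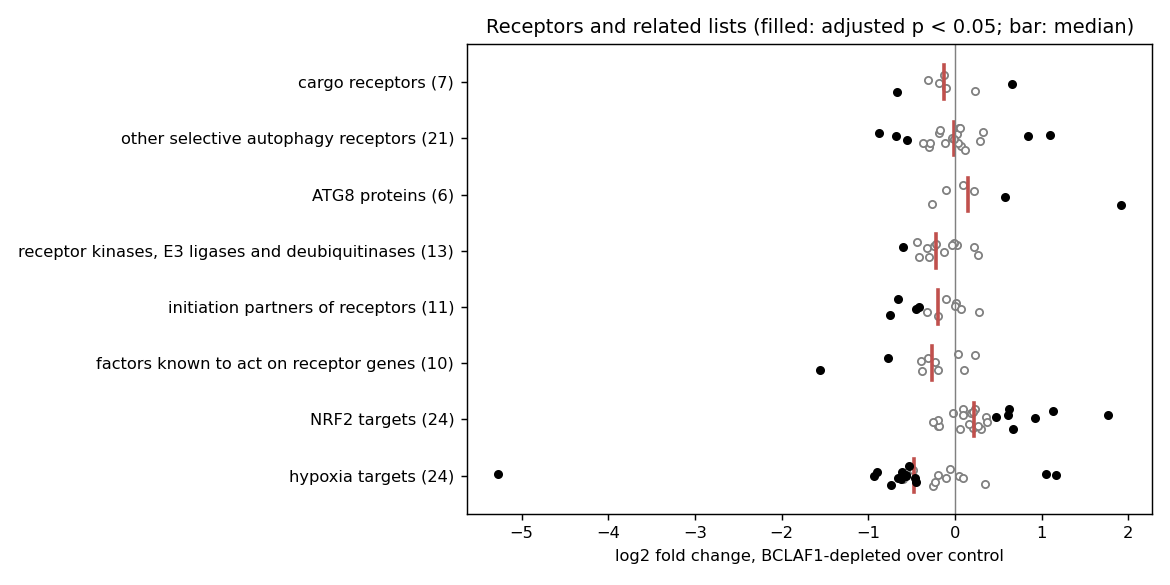
Log2 fold changes (BCLAF1-depleted over control) of the tested genes in the receptor list and the related lists, with list sizes in parentheses, filled points for an adjusted p under 0.05 and a red bar at each median. The receptor median is -0.13, that of NRF2 targets 0.22 and that of hypoxia targets -0.48.

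As a description of likeness, each receptor was compared with the 10172 other tested genes of at least 5 CPM on average by Pearson r of log2 CPM over the 6 libraries, which share the group difference. SQSTM1 was most like ATG12 (r = 0.9991), the ubiquitin-like protein of the ATG8 conjugation machinery, and CXCL1 (0.9968), a chemokine gene. BNIP3L was most like MLK4 (0.9994) and TRAPPC11 (0.9983), a subunit of a vesicle tethering complex. CALCOCO2 was most like CEP128 (0.9983) and CYB5R3 (0.9955), TAX1BP1 like HGS (0.9968) and CLPX (0.9950), and OPTN like ZNF165 (0.9942) and PRPF3 (0.9921). BNIP3 was most like GLYR1 (0.9946) and LEPROT (0.9911), and NBR1 like CPT1B (0.9855) and APH1B (0.9816). An r of at least 0.95 was reached by 509 genes for BNIP3L and 234 for SQSTM1, but by 10 for NBR1, so that a high r with 6 libraries singles out no gene.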

How the data were processed

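The members and lists were chosen with earlier results of these data known. Per the labels' protocols, oligo(dT)-selected RNA went into directional libraries. The deposited counts are whole reads per gene, not normalized, for 29122 genes, and the deposited FPKM values, scaled by the authors for length and library size, cover 28878 genes. The authors' tools were TopHat2, bcl2fastq and edgeR, with the build GRCh38, per the submitters' processing notes. Tool roles, versions, annotation, strand handling and batches are not stated there.

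The main test was that of edgeR 4.0.16 under R 4.3.3 (glmQLFit, glmQLFTest, group as the only term, TMM, filterByExpr with a minimum count of 10 and total of 15), with Benjamini-Hochberg adjustment over all tested genes. The SE is the log2 fold change divided by the root of F. CPM in log2 had a prior count of 2. Alternatives used DESeq2 1.42.0, limma 3.58.1 on FPKM of at least 1 in 3 libraries, and a per-library smooth trend (mgcv 1.9.3, basis size 8) of GENCODE 29 exon length and GC content of the longest transcript as an offset, available for 28362 genes. The main edgeR fit, the replicate block, the GC and length offset, DESeq2 and limma on log2 CPM were tested on simulated counts. Those counts held no group trend with length or GC content. The other settings were not simulated.

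Named were the receptors, BCLAF1, MED23, in each related list up to 4 called genes with the largest change, the genes overlapping a receptor gene as a check of the counting, and the 2 genes most like each receptor. RETREG3, NIPSNAP2 and other renamed genes were matched by older symbols. One of the planned gene lists is not reported here.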

Additional observations from a re-analysis of the deposited data

How the results depend on the processing

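In counts of called genes, the fit with all 6 libraries gave 2827 higher and 2870 lower genes, and 1 higher and 1 lower receptor. Counts for the related lists here are of genes called in either direction. Library totals alone gave 1283 higher and 3662 lower genes, with 0 higher and 2 lower receptors. They also gave 8 other selective receptors, 1 ATG8 gene, 3 receptor enzymes and 4 NRF2 targets. The same totals without mitochondrially encoded genes, added after seeing the data, gave 1592 higher and 3691 lower genes. With these came 2 lower receptors, 8 other receptors, 1 ATG8 gene and 3 enzymes. The deposited FPKM gave, as log2(FPKM + 1) and log2(FPKM + 0.1), 830 and 803 higher genes and 3728 and 3593 lower genes. Each came with 0 higher and 3 lower receptors, 8 other receptors, 5 enzymes and 5 regulating factors. Without a filter the FPKM gave 573 higher and 2057 lower genes, 0 higher and 0 lower receptors, 2 other receptors, 1 factor and 4 NRF2 targets. With the GC and length offset there were 2810 higher and 2551 lower genes, with 2 higher receptors, 1 ATG8 gene, 2 enzymes and 2 initiation partners. Adding the replicate block gave 2840 higher and 2703 lower genes, with 1 ATG8 gene, 2 enzymes, 2 initiation partners and 1 higher receptor. OPTN was then not called (0.36, edgeR adjusted p = 0.0601). The floor of 5 CPM left 1 ATG8 gene, beside 2109 higher and 2126 lower genes of all tested. No filter on counts gave 3 enzymes, beside 3009 higher and 3444 lower genes. NBR1 turned to 0.11 with the offset, without and with the block, and OPTN to -0.0038 with library totals, -0.063 with log2(FPKM + 1) with or without a filter and -0.066 with log2(FPKM + 0.1). The causes were not tested.

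Leaving out each library in turn gave 1383 to 3741 higher and 1549 to 4195 lower genes, 8.51 to 23.0% and 9.53 to 25.8% of those tested. Beside these shares there were 0 to 1 higher and 0 to 2 lower receptors, 3 to 8 other receptors, 1 to 3 ATG8 genes and 0 to 7 enzymes. There were also 2 to 7 initiation partners, 1 to 5 factors, 5 to 10 NRF2 targets and 8 to 18 hypoxia targets. The replicate numbers were not shown to pair libraries: deviations of same-numbered libraries correlated at 0.036, 0.047 and 0.119. Each library correlated best with its own number, but BCLAF1-depleted replicate 1 reached 0.033 with control replicate 2. Values this small, which are not independent of each other, cannot tell whether libraries are paired. With the replicate block 2886 genes were higher and 3121 lower, with 3 enzymes, and SQSTM1 was at 0.66 (edgeR adjusted p = 0.0103) and BNIP3L at -0.70 (edgeR adjusted p = 0.00161), while MED23 passed at -0.59 (edgeR adjusted p = 0.0456).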
